A study of Mus musculus with 10 samples.

Results

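The genes described here are 10 of the 45232 gene entries measured in serum-starved mouse fibroblasts, chosen by name as genes of the nuclear lamina, the inner nuclear membrane, the nuclear pore and nuclear import. They are Lmna, Lmnb1, Lmnb2, Tmpo, Lbr, Nup107, Nup153, Kpna1, Kpna2 and Kpnb1, and each matched 1 entry by symbol. NIH3T3 is an established mouse fibroblast line. All 10 libraries came from cells with Cas9 nickase-induced InDels in Lin37, a subunit of the DREAM complex that represses cell cycle genes in quiescent cells. The InDels lay in exon 4 in one clone and in exon 6 in the other, and each clone was grown from a single cell. KO cells carried an episome that expressed luciferase and GFP after doxycycline induction, and rescue cells carried one that expressed wild-type Lin37 and GFP. Both kinds of cells were sorted for GFP and kept in medium with 0% FCS for 60 h before RNA was extracted. The exon 4 clone had 2 replicates of each genotype, in 4 libraries. The exon 6 clone had 6 libraries, in which samples 2 and 3 of each genotype were technical replicates and were averaged. This left 4 KO and 4 rescue replicates. The rescue is a re-expression from an episome and not the parental line, which is not analysed here.

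The nuclear lamina is a meshwork of A-type and B-type lamins under the inner nuclear membrane. Membrane proteins such as LAP2 and the lamin B receptor tie it to the membrane and to chromatin. Nuclear pore complexes span both membranes, and importin α and importin β carry proteins with a nuclear localization signal through them. In dividing cells the lamina and the pores are taken apart at mitosis and rebuilt in the daughter nuclei, and some genes of these structures are transcribed with the cell cycle.

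The values are RPKM, read counts divided by gene length and by library size, and each library was divided by 1 scaling factor to make the libraries comparable. These factors lay between 0.324 and 2.7. Each KO library had a larger factor than the rescue library of its clone and sample number, though the genotypes overlapped. The exon 4 factors read 1.9 (KO) against 0.722 (rescue), then 0.601 against 0.377. For exon 6 they read 2.4 against 1.06, 0.896 against 0.324 and 2.7 against 1.73. Scaling thus lowered KO values relative to rescue values. Libraries also held 7920 to 22034 entries at 0. Why the factors followed the genotype was not tested. Lin37, the targeted gene, was at 0.315 ± 0.0681 RPKM in KO but 3.58 ± 1.46 RPKM in rescue replicates (SD, n = 4 each), and every KO replicate was below every rescue replicate. Of 8 fibroblast genes listed, Col1a1 lay between 98.7 and 324 RPKM and Vim between 31.1 and 50.9 RPKM over the libraries. Others of the 8 were far lower. The lowest gene mean was 0.867 RPKM in exon 4 KO and 1.42 RPKM in exon 4 rescue replicates. It was 3.44 RPKM in exon 6 KO and 3.23 RPKM in exon 6 rescue replicates. Of 9 markers of epithelial, endothelial, blood, muscle and fat cells, none exceeded 0.295 RPKM in any library, and the muscle regulator Myod1 was at 0 in 8 of 10 libraries. The summed level of 10 cell division genes moved with the genotype. It lay between 16.4 and 18.1 RPKM in exon 4 KO, between 17.3 and 18.2 RPKM in exon 6 KO, between 3.17 and 5.02 RPKM in exon 4 rescue and between 2.09 and 2.37 RPKM in exon 6 rescue replicates, and none of the 10 was at 0 throughout a group. The part of this shift in the results below was not tested.

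Of the 10 genes, 9 had a positive difference between KO and rescue over both clones and 2 rose at an adjusted p under 0.05, Nup107 and Kpna2. None fell. Over all 16866 genes tested, 6916 had a positive difference, and 1.61% rose and 0.083% fell by the same test. Nup107, a scaffold subunit of the pore, was 2.08-fold and Kpna2, an importin α, 2.53-fold as high in KO as in rescue replicates. The median difference of the 10 genes was 0.31 on the log2(RPKM + 0.5) scale, against -0.03 over all genes tested. Every KO replicate lay above every rescue replicate for Nup107 and Kpna2, and for none of the others. This held for 3.11% of all genes tested, and the opposite, every KO replicate below every rescue replicate, for 1.4%. Adjusted p-values of single genes are those of limma with clone as a covariate, corrected over all genes by the Benjamini-Hochberg method. With the values left as deposited, without the scaling factors, the median difference of all genes was 0.64 in place of -0.03, and differences are therefore read after scaling.

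**Figure D1:**
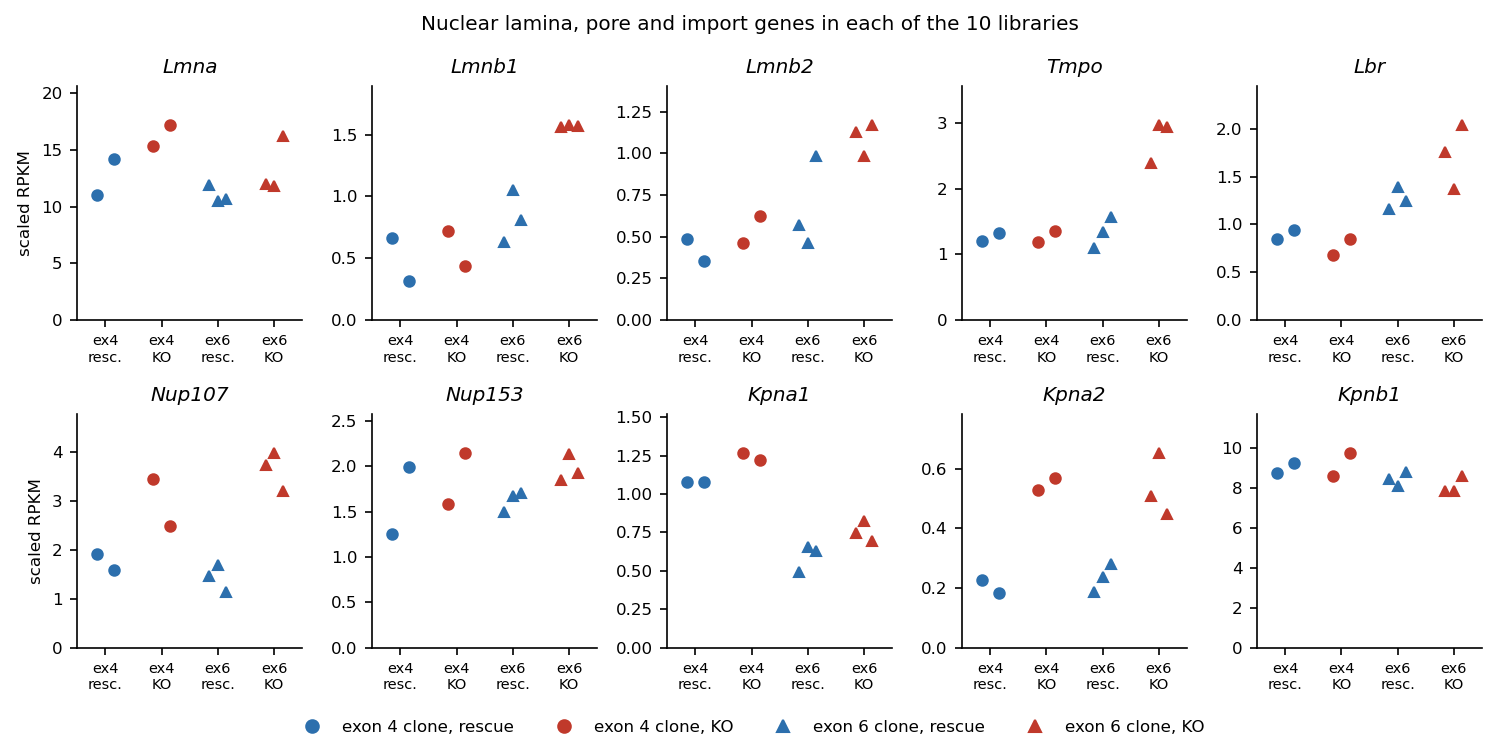
Scaled RPKM of each of the 10 genes in each of the 10 libraries (each vertical axis starts at 0). Circles are the exon 4 clone, triangles the exon 6 clone, red KO and blue rescue, and the technical replicates of the exon 6 clone are shown separately. The red points stand above all blue points in both clones for Nup107 (2.49 to 3.99 against 1.13 to 1.92) and Kpna2 (0.449 to 0.654 against 0.182 to 0.28).

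The 10 genes spanned a wide range of levels. RPKM is per length and so allows a comparison between genes, except for Kpna2, whose entry shares most of its sequence with copies. In rescue replicates Lmna was highest at 11.9 ± 1.61 RPKM, followed by Kpnb1 at 8.72 ± 0.379 RPKM (SD, n = 4). The ranges of the 2 genes did not overlap each other or those of the remaining genes. Nup153, Nup107, Tmpo, Lbr, Kpna1, Lmnb1 and Lmnb2 followed in this order, from 1.61 ± 0.31 RPKM down to 0.531 ± 0.155 RPKM, and each overlapped with its neighbour. The Kpna2 entry was lowest at 0.213 ± 0.0359 RPKM, apart from Lmnb2. The RPKM of this entry and its copies summed to 2.89 ± 0.399. This sum is over entries of different length and does not rank Kpna2 among the other genes. In KO replicates Lmna and Kpnb1 again came first and apart, and Nup107 was next. From Nup107 down to Kpna2 the ranges of neighbours in that order overlapped.

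Lmna (chr3:88480147-88509956, minus strand, all positions from GENCODE M21 on GRCm38) encodes the A-type lamins A and C. Exon 4 levels were 15.3 and 17.2 RPKM in KO but 11 and 14.2 RPKM in rescue libraries. Exon 6 KO libraries had 12, 11.8 and 16.2 RPKM, and exon 6 rescue libraries 11.9, 10.5 and 10.7 RPKM. The KO replicate was the higher of each pair with the same number, but the genotypes overlapped. Over both clones the difference was 0.28 on the log2(RPKM + 0.5) scale (95% interval 0.01 to 0.55, adjusted p = 0.54 by limma), and it did not pass the test.

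Lmnb1 encodes lamin B1, a B-type lamin that stays attached to the membrane. It was at 0.717 and 0.433 RPKM in exon 4 KO and at 0.663 and 0.318 RPKM in exon 4 rescue libraries. The exon 6 clone had 1.56, 1.58 and 1.57 RPKM in KO and 0.632, 1.05 and 0.812 RPKM in rescue libraries. KO libraries of the exon 6 clone were thus all above the rescue libraries of that clone, while the exon 4 libraries of both genotypes were interleaved. The difference was 0.13 (95% interval -0.53 to 0.79) in exon 4 cells and 0.70 (0.33 to 1.07) in exon 6 cells, with adjusted p = 0.988 and 0.145 by limma. No gene of 18751 passed in the exon 4 clone alone, and even Lin37 had an adjusted p of 0.167 there by limma. An adjusted p of that clone alone therefore cannot show the absence of a change, here or for the genes below. Both clones together gave 0.41 (0.01 to 0.81, adjusted p = 0.541).

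Lmnb2 (chr10:80901203-80918245, minus strand) encodes lamin B2. It was at 0.461 and 0.625 RPKM in exon 4 KO, 0.483 and 0.35 RPKM in exon 4 rescue, 1.13, 0.984 and 1.17 RPKM in exon 6 KO and 0.569, 0.46 and 0.981 RPKM in exon 6 rescue libraries. The highest exon 6 rescue value came from sample 3, whose technical partner had the lowest, so that the spread between these technical replicates (0.62 in log2) exceeded the difference over both clones of 0.34 (95% interval 0.08 to 0.60, adjusted p = 0.35 by limma). Neither lamin B gene passed the test in either clone.

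Tmpo (chr10:91147571-91181315, minus strand) encodes the LAP2 proteins, which bind lamins and chromatin. It was at 1.19 and 1.36 RPKM in exon 4 KO and at 1.2 and 1.33 RPKM in exon 4 rescue libraries. Exon 6 libraries held 2.39, 2.97 and 2.94 RPKM if KO, and 1.09, 1.34 and 1.57 RPKM if rescue. The exon 4 values of both genotypes lay in the same range, whereas the exon 6 KO values were 2.11-fold those of rescue. The differences on the log2 scale were 0.00 (95% interval -0.44 to 0.45) for exon 4 and 0.84 (0.45 to 1.24) for exon 6, with adjusted p = 0.999 and 0.111 by limma.

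Lbr (chr1:181815335-181843046, minus strand) encodes the lamin B receptor, an inner membrane protein that also has sterol reductase activity. It was at 0.674 and 0.841 RPKM in exon 4 KO and 0.849 and 0.938 RPKM in exon 4 rescue libraries. The exon 6 clone had 1.76, 1.37 and 2.04 RPKM in KO and 1.16, 1.39 and 1.24 RPKM in rescue libraries. With technical replicates averaged, KO was below rescue in both exon 4 pairs and above it in both exon 6 pairs. In sample 2 of the exon 6 clone taken alone, KO (1.37 RPKM) was not above rescue (1.39 RPKM). The exon 6 KO technical replicates differed by 0.44 in log2, more than the exon 6 difference between the genotypes. The log2 difference was -0.15 (95% interval -0.62 to 0.32) for exon 4 and 0.36 (0.09 to 0.63) for exon 6, with adjusted p = 0.988 and 0.296 by limma.

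An interaction term for clone and genotype was used to ask whether the response differed between clones. By limma no gene passed at an adjusted p under 0.05 among all 16866 genes, and 4.06% had an unadjusted p under 0.05. Of the 10 genes, 2 had an unadjusted p under 0.05, Tmpo with an interaction of 0.84 and Lbr with 0.51 on the log2 scale. Their unadjusted p-values by limma were 0.00666 and 0.0258, and the adjusted p was 0.997 for both. A difference between the clones in the response of the lamina genes was therefore not shown.

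**Figure D2:**
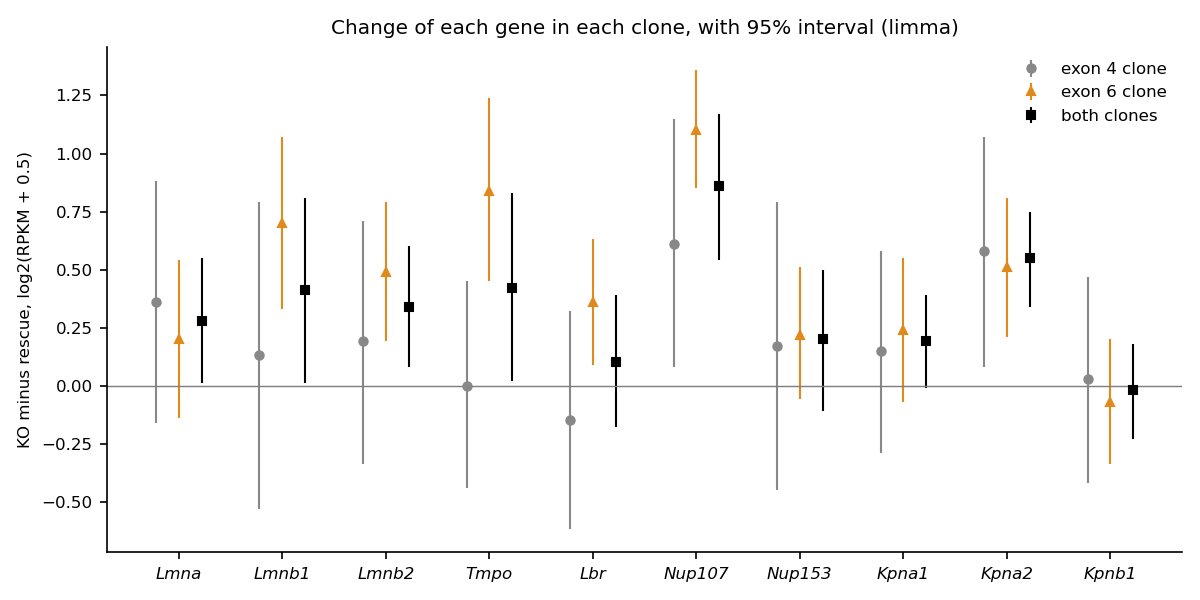
Difference between KO and rescue on the log2(RPKM + 0.5) scale for each gene, with bars for the 95% interval from limma. Grey circles are the exon 4 clone (2 against 2 replicates), orange triangles the exon 6 clone (2 against 2) and black squares both clones (4 against 4). Over both clones Nup107 was at 0.86 and Kpna2 at 0.55, and Kpnb1 at -0.02.

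Nup107 (chr10:117750621-117792705, minus strand) encodes a subunit of the Y complex, the outer scaffold of the pore, which also acts at kinetochores. Its level was 3.45 and 2.49 RPKM in exon 4 KO and 1.92 and 1.58 RPKM in exon 4 rescue libraries. The exon 6 KO libraries were at 3.74, 3.99 and 3.2 RPKM and their rescue libraries at 1.46, 1.7 and 1.13 RPKM. No KO library came down to the rescue libraries in either clone. The ratio of the means was 1.7 in the exon 4 and 2.55 in the exon 6 clone. On the log2 scale the difference over both clones was 0.86 (95% interval 0.54 to 1.17, adjusted p = 0.0153 by limma). In the exon 6 clone alone, where 1.24% of 15301 genes tested rose and 0.0654% fell, Nup107 was the 1 gene of the 10 that passed, with 1.10 (adjusted p = 0.0164). In the exon 4 clone alone no gene of 18751 passed, 4.1% had an unadjusted p under 0.05, and Nup107 had 0.61 with an unadjusted p = 0.0314 and an adjusted p = 0.988 by limma. The call over both clones was lost without exon 4 KO replicate 1 (adjusted p = 0.0538) and without any 1 of the 4 exon 6 replicates (0.0713 to 0.0856), with a log2 difference of 0.80 to 0.83 in these fits.

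Nup153 (chr13:46679905-46727940, minus strand) encodes a nucleoporin of the nuclear basket. It was at 1.58 and 2.15 RPKM in exon 4 KO, 1.25 and 1.99 RPKM in exon 4 rescue, 1.85, 2.14 and 1.93 RPKM in exon 6 KO and 1.5, 1.67 and 1.7 RPKM in exon 6 rescue libraries. The KO replicate was the higher in all 4 pairs, which held for 8.96% of all genes tested, and the genotypes overlapped. The log2 difference was 0.20 (95% interval -0.11 to 0.50, adjusted p = 0.748 by limma).

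Kpna1 (chr16:35978750-36037131, plus strand) encodes an importin α, an adaptor that binds nuclear localization signals. It was at 1.27 and 1.22 RPKM in exon 4 KO and at 1.08 RPKM in both exon 4 rescue libraries. The exon 6 clone had 0.749, 0.828 and 0.693 RPKM in KO and 0.49, 0.654 and 0.626 RPKM in rescue libraries. KO values were above rescue values within each clone, but the exon 4 rescue values were above the exon 6 KO values. The log2 difference over both clones was 0.19 (95% interval -0.01 to 0.39, adjusted p = 0.585 by limma).

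Kpnb1 (chr11:97159714-97187881, minus strand) encodes importin β1, which carries the adaptor and its cargo through the pore. It was at 8.58 and 9.76 RPKM in exon 4 KO, 8.72 and 9.25 RPKM in exon 4 rescue, 7.84, 7.84 and 8.57 RPKM in exon 6 KO and 8.46, 8.07 and 8.8 RPKM in exon 6 rescue libraries. The genotypes overlapped over both clones and in the exon 4 clone, while both exon 6 KO replicates (7.84 and 8.2 RPKM, technical replicates averaged) were below both rescue replicates (8.46 and 8.44 RPKM). The log2 difference was -0.02 with a 95% interval of -0.23 to 0.18 (adjusted p = 0.965 by limma).

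Kpna2 (chr11:106988629-106999541, minus strand) encodes an importin α that is abundant in dividing cells. Its entry was at 0.528 and 0.57 RPKM in exon 4 KO and 0.226 and 0.182 RPKM in exon 4 rescue libraries. The exon 6 clone had 0.507, 0.654 and 0.449 RPKM in KO and 0.185, 0.236 and 0.28 RPKM in rescue libraries. KO libraries of both clones fell into the same narrow range, above all rescue libraries. The log2 difference was 0.55 (95% interval 0.34 to 0.75, adjusted p = 0.0195 by limma) over both clones, 0.58 in the exon 4 and 0.51 in the exon 6 clone. Within a clone the adjusted p was 0.988 and 0.184. Without exon 4 rescue replicate 2 the call over both clones held (adjusted p = 0.0444), and without any other replicate it was lost (0.0502 to 0.124), at a log2 difference of 0.52 to 0.58.

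The level of the Kpna2 entry depends on how reads were shared between copies of the gene. Of its 31-base stretches, 66% also occur in transcripts of other genes, against at most 9.4% for the other 9 genes. Gm10184 (chr17:89908462-89910449, minus strand, annotated as protein coding) and Gm10259 (chr3:25211016-25212605, minus strand, a processed pseudogene) differ from the Kpna2 coding sequence at 2 and 3 of 1587 bases. The first 90 coding bases, taken from the GENCODE transcripts, are shown because a read from one can match all of them. The capital marks the one position of this window at which Gm10259 differs.
Kpna2: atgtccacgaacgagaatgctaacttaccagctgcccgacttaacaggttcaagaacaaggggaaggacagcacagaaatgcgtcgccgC
Gm10184: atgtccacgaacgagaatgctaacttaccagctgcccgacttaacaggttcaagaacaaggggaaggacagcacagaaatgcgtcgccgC
Gm10259: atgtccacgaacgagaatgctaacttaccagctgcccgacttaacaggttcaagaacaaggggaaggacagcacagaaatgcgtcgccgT
The entry of Kpna2 held 5.44% to 10.1% of the summed RPKM of these entries in each library, Gm10184 lay between 1.15 and 4.82 RPKM and Gm10259 between 1.02 and 3.56 RPKM. Which locus the reads came from cannot be told from these values. The summed level was 5.62 and 6.06 RPKM in exon 4 KO and 3.24 and 2.35 RPKM in exon 4 rescue libraries. Exon 6 sums were 7.15, 8.63 and 8.26 RPKM (KO libraries) and 3.14, 2.94 and 2.77 RPKM (rescue libraries). All KO libraries were above all rescue libraries, and the sums averaged 6.82 ± 1.26 RPKM over KO and 2.89 ± 0.399 RPKM over rescue replicates (SD, n = 4). The log2 difference of the sum was 1.10 (95% interval 0.82 to 1.38, adjusted p = 0.00211 by limma), with 0.96 in the exon 4 clone (adjusted p = 0.567) and 1.24 in the exon 6 clone (adjusted p = 0.0218). Gm10184 alone gave 1.04 and Gm10259 alone 0.90 over both clones (adjusted p = 0.00326 and 0.00475 by limma). Blocking on the replicate number changed the adjusted p of Gm10184 in the exon 6 clone from 0.0364 to 0.0722.

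**Figure D3:**
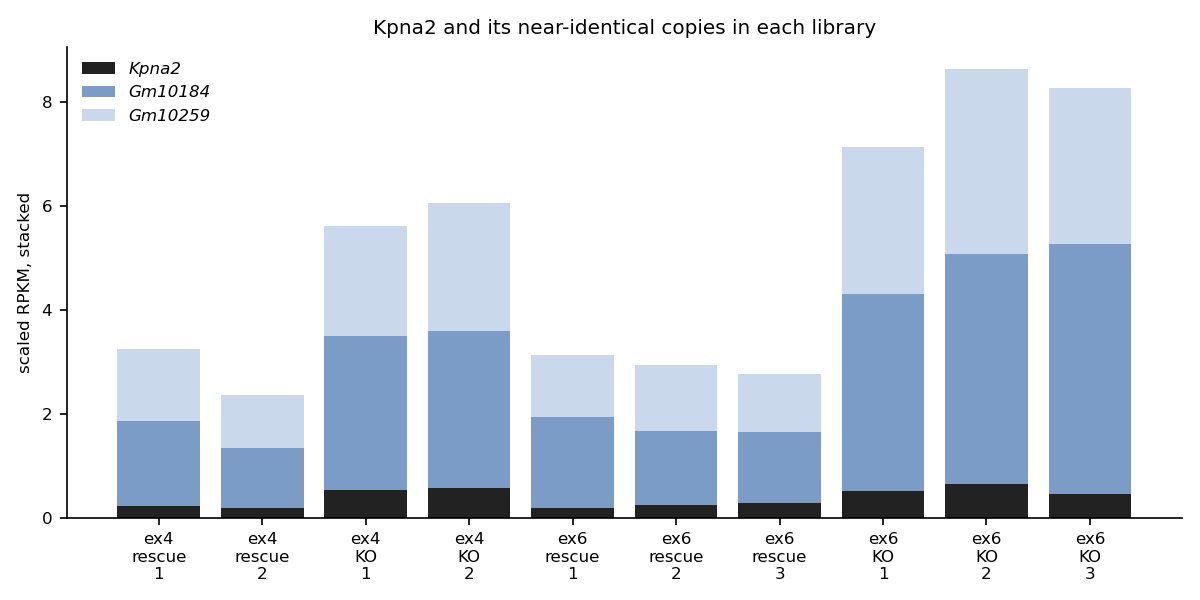
Scaled RPKM of Kpna2 (black) and of its near-identical copies Gm10184 (blue) and Gm10259 (light blue), stacked for each library, grouped by clone and genotype. The stacks reach 5.62 to 8.63 RPKM in KO and 2.35 to 3.24 RPKM in rescue libraries, and the black part is 5.44% to 10.1% of each.

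To contrast the B-type with the A-type lamin and the 2 importin α genes with each other, log2 ratios were formed within each replicate and compared by a two-sided exact permutation test over 4 KO and 4 rescue replicates (70 arrangements, smallest possible p = 0.0286, adjusted over 5 ratios). Lmnb1 over Lmna was -3.34 ± 0.77 in KO and -3.47 ± 0.51 in rescue replicates (SD, n = 4). The difference of 0.13 did not exceed the spread over both clones (exact p = 0.8, adjusted p = 0.8). This spread includes the difference in level between the clones. An exact permutation test within the clones (36 arrangements, smallest possible p = 0.0556) gave an adjusted p of 0.722. No ratio could have passed that test. The difference was -0.23 for exon 4 and 0.50 for exon 6. Exon 6 replicates had ratios of -2.60 and -2.81 in KO and of -3.45 and -2.95 in rescue, so the genotypes did not overlap there, whereas in the exon 4 clone -3.69 and -4.24 in KO lay in and below the range of -3.31 and -4.17 in rescue replicates. Without exon 4 rescue replicate 2, exon 6 KO replicate 1 or exon 6 KO replicate 2 the difference was -0.10, -0.11 and -0.04.

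Kpna2 over Kpna1 was -0.51 ± 0.26 in KO and -0.86 ± 0.35 in rescue replicates (SD, n = 4). Within each clone both KO replicates were above both rescue replicates, with a difference of 0.43 in the exon 4 and 0.27 in the exon 6 clone. The levels of the clones differed, so that the pooled ranges overlapped and the difference of 0.35 did not pass (exact p = 0.171, adjusted p = 0.286). Permuting within the clones, which allows 36 arrangements and no p under 0.0556, gave an adjusted p of 0.139. With the Kpna2 copies summed in, the difference was 0.91 (exact permutation test, adjusted p = 0.0952). Without a pseudocount the ratio of Kpna2 to Kpna1 was 0.571 ± 0.153 in KO and 0.29 ± 0.118 in rescue replicates.

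Of the remaining ratios, Tmpo over Lbr was 0.50 ± 0.12 in KO and 0.18 ± 0.20 in rescue replicates, and no replicates overlapped. The difference of 0.32 had the smallest p that the design allows (exact p = 0.0286, adjusted p = 0.143). Nup107 over Nup153 differed by 0.66 (exact p = 0.0571, adjusted p = 0.143) and Lmnb1 over Lmnb2 by 0.08 (exact p = 0.686, adjusted p = 0.8). None of the 5 ratios passed after adjustment. A lone ratio could not have passed, because even the smallest possible p of 0.0286 is above 0.05 once adjusted over 5 ratios. For a ratio taken alone this test therefore decides nothing.

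**Figure D4:**
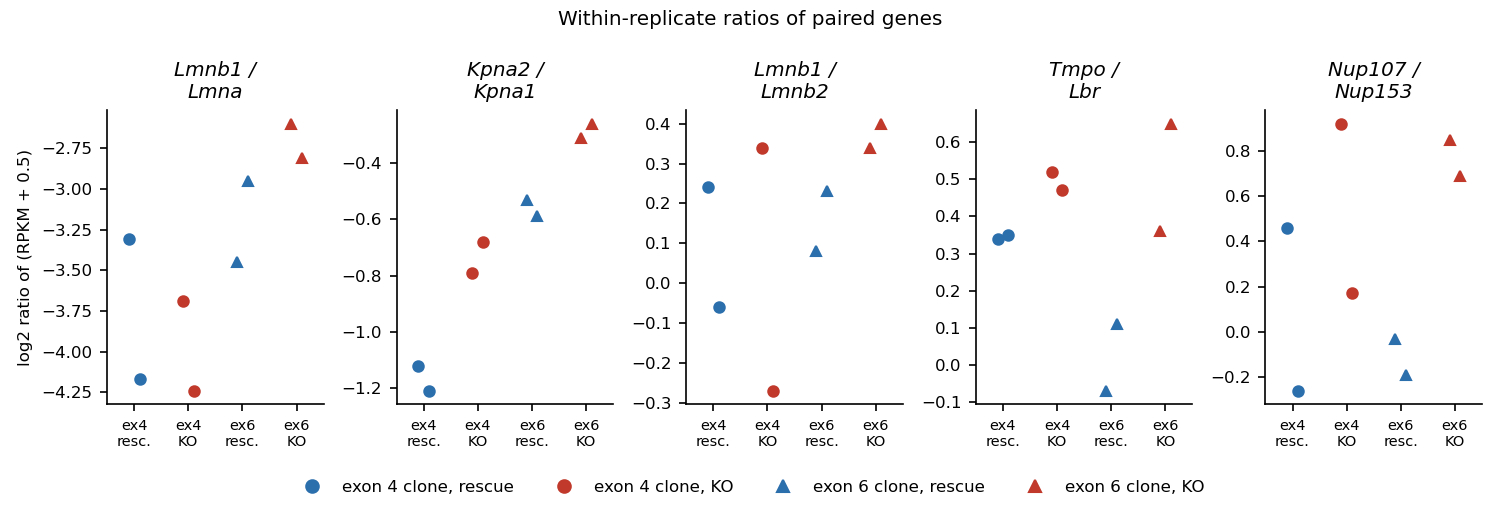
Log2 ratio of (RPKM + 0.5) of 5 gene pairs in each of the 8 replicates, with the exon 6 technical replicates averaged. Circles are the exon 4 clone, triangles the exon 6 clone, red KO and blue rescue, and the vertical axes differ. Kpna2 over Kpna1 is higher in KO within each clone, by 0.43 and 0.27, while Lmnb1 over Lmna differs by -0.23 in the exon 4 and 0.50 in the exon 6 clone.

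The other genes of the same structures were read from wider lists. Of 28 lamina and envelope genes tested, 1 rose and none fell, with a median difference of 0.07, where 1.61% of all genes tested rose. Without the genes described above, the median was 0.01 over 23 genes. The one that rose was Vrk1, a kinase that phosphorylates BAF and so loosens chromatin from the envelope. It was at 1.09 ± 0.0698 RPKM in KO and 0.34 ± 0.102 RPKM in rescue replicates (SD, n = 4), a log2 difference of 0.93 (adjusted p = 0.00267 by limma). The lowest of the list was the nesprin gene Syne1 at -0.30 (adjusted p = 0.748). Emd, encoding emerin, gave 0.03 and Sun1 0.01, and were named after their values were seen.

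Of 31 pore genes listed, 29 were tested, 5 rose and none fell, against 1.61% that rose among all genes, and the median difference was 0.21. Besides Nup107, these were Ndc1 (1.35) and Aaas (1.27), which encode the membrane-anchored nucleoporin NDC1 and its partner ALADIN, Nup93 (0.80) of the inner ring and Nup85 (0.68) of the Y complex. Aaas reached 11.8 ± 2.87 RPKM in KO and 4.6 ± 1.15 RPKM in rescue replicates, and Ndc1 3.23 ± 0.0979 RPKM and 0.976 ± 0.234 RPKM (SD, n = 4). Their adjusted p-values by limma were 0.000338 for Aaas, 0.000812 for Ndc1, 0.00488 for Nup93 and 0.00513 for Nup85. The KO replicate was the higher in all 4 pairs for 15 of the 29, and for 8.96% of all genes tested. Nup37, another Y complex gene, gave 0.64 with an adjusted p of 0.125 by limma, and of 0.0356 when the fit was blocked on the replicate number. The lowest was Nup42 at -0.18. Nup62 matched no entry and Nup210 was below the minimum level.

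Of 30 genes of nuclear transport receptors and the Ran cycle, 29 were tested, 3 rose and none fell, again against 1.61% that rose among all genes, with a median difference of 0.01. Besides Kpna2, these were Xpo1, the exportin of leucine-rich export signals, and Rangap1, the activator of the Ran GTPase. Xpo1 was at 3.96 ± 0.205 RPKM in KO and 1.91 ± 0.336 RPKM in rescue replicates, and Rangap1 at 6.58 ± 0.776 RPKM and 3.31 ± 0.482 RPKM (SD, n = 4). Both gave a log2 difference of 0.90 (adjusted p = 0.00167 and 0.000858 by limma). Xpot, a tRNA exportin, was lowest at -0.22, and Kpna7 was below the minimum level. In 8 of 10 cell division genes the same test found a rise, with a median of 1.37.

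**Figure D5:**
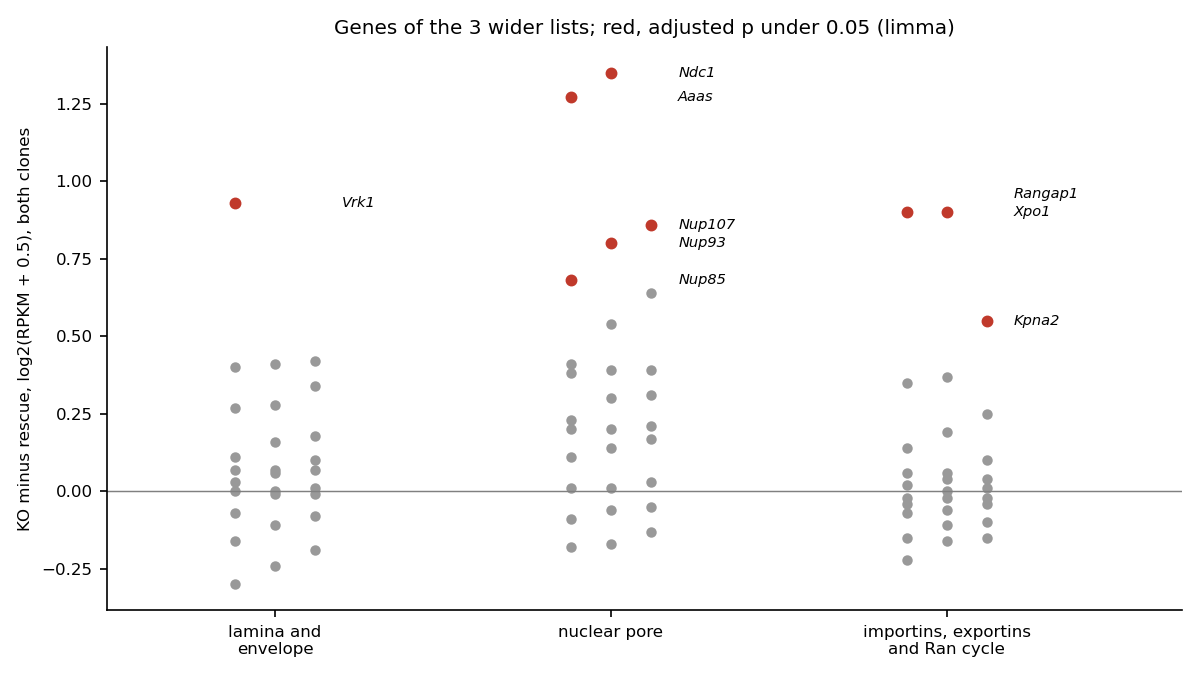
Difference between KO and rescue over both clones, on the log2(RPKM + 0.5) scale, of each gene tested in the 3 wider lists (28 lamina and envelope, 29 pore, 29 transport genes). Red points had an adjusted p under 0.05 by limma and are named, and grey points did not. The genes called are 1, 5 and 3 of these lists, all above 0, from 0.55 for Kpna2 to 1.35 for Ndc1.

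The genes with the profile most like that of Kpna2 over the 8 replicates were Opa3, Tonsl, Rpa1, Hdgf and Mad1l1, among 6063 protein-coding genes whose mean reached 1 RPKM. Their root mean square differences from Kpna2 were 0.0582 to 0.103 on the log2(RPKM + 0.5) scale after each gene was centred on its mean. On this scale they differed by 0.41 to 0.59 between KO and rescue, beside 0.55 for Kpna2. The pseudocount shrinks the change of a low entry more, and the Kpna2 entry was 2.53-fold as high in KO. The likeness is thus one on this scale and need not hold for fold changes. For Lmnb1, Pmvk, Hist1h4n, Hmgn3 and Lss were closest, at 0.0488 to 0.185. These had log2 differences between 0.19 and 0.44 over both clones.

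Promoter sequences of RefSeq (GRCm38.p6, from 250 bases before to 50 after the start) were used for 8 of the 10 genes, in 11 entries. Those of Lmnb1 and Kpna1 were not examined. The 11 entries were searched on both strands for the CHR letters TTTGAA and TTCGAA, the element bound by the MuvB core of DREAM, and for the E2F letters TTCCCGC or TTGGCGC, as well as TTCGCGC and also TTGCCGC. In these entries no match of one kind overlapped a match of the other. Of all 32851 promoters, 19.2% held the CHR letters and 9.57% the E2F letters. Kpna2, Lbr and Tmpo held CHR letters and Nup107, Lmnb2 and Tmpo held E2F letters, in one of 2 entries each for Tmpo and Lmnb2. The promoters of the 2 genes that rose are shown with these letters in capitals, 5′ to 3′ on the strand of the gene. In Kpna2 (chr11:106999476-106999775, minus strand) TTTGAA lay on the opposite strand, centred at position -32 from the start.
Kpna2: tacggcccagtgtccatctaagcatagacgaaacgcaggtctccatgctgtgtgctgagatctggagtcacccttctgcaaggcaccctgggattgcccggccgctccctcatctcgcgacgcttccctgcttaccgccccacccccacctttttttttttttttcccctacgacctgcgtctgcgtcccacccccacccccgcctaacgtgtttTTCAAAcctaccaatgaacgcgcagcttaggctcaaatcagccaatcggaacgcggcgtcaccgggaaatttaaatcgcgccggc
In Nup107 (chr10:117792656-117792955, minus strand) TTCCCGC lay on the opposite strand, centred at positions -49 and 23 from the start.
Nup107: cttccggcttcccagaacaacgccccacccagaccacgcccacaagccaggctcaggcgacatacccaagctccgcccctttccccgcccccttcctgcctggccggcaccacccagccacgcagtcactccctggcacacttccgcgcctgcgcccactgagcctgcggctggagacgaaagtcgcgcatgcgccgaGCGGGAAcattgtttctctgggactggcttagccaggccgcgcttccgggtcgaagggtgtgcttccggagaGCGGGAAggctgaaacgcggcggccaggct
A match of letters is a description of the sequence and not of binding.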

How the data were processed

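RNA was sequenced from 10 rRNA-depleted libraries prepared with the Nugen Ovation FFPE kit. The authors clipped adapters with cutadapt, mapped reads to mm10 with segemehl and counted them with rnacounter against GENCODE vM5. Picard 1.89 is named in the submitters' processing notes. The deposited values are RPKM per gene, computed by the authors, and the reads behind their library totals are not given in the sources used here. Low values times gene length were whole multiples of 1 step, within 0.05, for only 20.3% to 30.5% of values per library. Depth is therefore unknown, and no counting error is given. Whether counting used strand and how it treated reads with several matches is not given in the sources used here.

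GENCODE M21 named 44585 of 45232 entries. Scaling factors were medians of each library's ratios to a geometric-mean library, taken over 8523 genes that averaged 1 RPKM or more and were above 0 everywhere. Genes averaging 0.1 RPKM or more were tested on log2(RPKM + 0.5) with limma 3.58.1 (trend) in R 4.3.3, with clone as covariate, with calls made under an adjusted p of 0.05. This was tested on simulated data. Replicates with the same number deviated together (correlation 0.432 in the exon 4 and 0.217 in the exon 6 clone), so the numbers were taken to pair the samples, from the data and not from the labels. With 2 replicates in a group, swapping the numbers of a genotype would only turn the sign of the correlation. The pairs are therefore an assumption. Shared sequence was counted as 31-base stretches in transcripts, and entries with at least 80% of theirs in Kpna2 were called copies. Python 3.11.15 with pandas 2.3.3 was used. The genes and lists were chosen with earlier results of these data known. All 10 genes, the called, highest and lowest genes of each wider list, Lin37 and the 5 genes most like Lmnb1 and Kpna2 were named, of which 1 is not reported here. Alternatives were the pseudocount, the minimum level, other scalings, the treatment of technical replicates, the covariate, the replicate block, limma without trend and each replicate left out.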

Additional observations from a re-analysis of the deposited data

Results flagged for a closer look

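With technical replicates averaged, Lbr differed in direction between the clones: KO was below rescue in both exon 4 pairs and above it in both exon 6 pairs. In sample 2 of the exon 6 clone taken alone, KO (1.37 RPKM) was not above rescue (1.39 RPKM). The interaction of 0.51 on the log2 scale had an unadjusted p of 0.0258 and an adjusted p of 0.997 by limma, and so did not pass the test. In the 20 groups of 4 replicates tested for a value far from the others, none was found by Dixon's criterion.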

How the results depend on the processing

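Counts and differences moved with the minimum level, the scaling and the replicates, and the size of the differences of low genes also with the pseudocount. With 0.1 and 1 RPKM in place of 0.5, Kpna2 gave 1.04 and 0.34 in place of 0.55, Kpna2 over Kpna1 0.76 and 0.21 in place of 0.35, and Lmnb1 over Lmna 0.29 and 0.04 in place of 0.13, with no change in which side of the threshold they fell. With no minimum level, 171 genes rose and 6 fell in place of 271 and 14, and 0 of the 10 genes were called over both clones and 0 in the exon 6 clone (Nup107 and Kpna2 adjusted p = 0.0816 and 0.0936 by limma). With a minimum of 1 RPKM, 93 of 7550 genes tested rose, 1 of the 10 was called (Nup107, adjusted p = 0.0146 by limma), and 0 envelope genes. Lmnb1, Lmnb2, Kpna1, Kpna2 and Vrk1 averaged below this minimum and so were not tested. In the values as deposited, 875 of 16349 genes tested rose, and the median difference of all genes was 0.64. There, 4 of the 10 were called over both clones (Lmnb1 at 1.09 and Tmpo at 1.20 among them) and 10 in the exon 6 clone. The wider lists had 5 envelope, 11 pore and 5 transport genes, and Kpnb1 turned to 0.94. The share of all genes called in the exon 6 clone is not given for this setting, and these counts are not read as a result about the 10 genes. With technical replicates kept separate, which counts them as independent, 360 of 16549 genes tested rose over both clones, 10 pore genes among them. In the exon 6 clone 2 of the 10 were called, and the share of all genes called there is not given for this setting. Tmpo over Lbr at 0.37 and Nup107 over Nup153 at 0.71 passed (exact permutation test, adjusted p = 0.0397). Using only sample 2 of each exon 6 group, 0 of the 10 were called in that clone and Lmnb1 over Lmnb2 was -0.02. With only sample 3, 244 of 16537 genes tested rose over both clones and 6 fell. Of the 10, 1 was called over both clones and 0 in the exon 6 clone. The one called was Nup107 (adjusted p = 0.0264 by limma), while Kpna2 at 0.50 lost its call (adjusted p = 0.065 by limma). Without the clone covariate 6 genes fell. With the replicate number as a block, which pairs the samples, 27 genes fell and 276 rose, and 2 of the 10 were called (Nup107 adjusted p = 0.0193, Kpna2 0.0374); besides the values given beside the results, it changed no other call. With the Kpna2 copies summed, chosen after seeing the data, 2 of the 10 were called in the exon 6 clone. In the main fit of that clone 1.24% of 15301 genes tested rose.

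Leaving out 1 replicate at a time, 174 to 265 genes rose and 4 to 16 fell, 0 to 2 of the 10 were called over both clones, Lmnb1 over Lmna lay between -0.11 and 0.44, and Kpnb1 between -0.07 and 0.00, with 0.00 without exon 4 KO replicate 1 or exon 6 KO replicate 1. In the exon 6 clone, leaving out 1 of its own 4 replicates sets a lone sample, assumed to vary like the others, against 2, and 0 of the 10 were called in each of these fits. The cause of these shifts was not tested. Depth is unknown, which limits what can be said of low values such as those of Kpna2.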
